A study of Mus musculus with 81 samples.

Results

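P4 cells are 1 of the 2 EGFP-positive germline populations that were sorted from testes of E18.5 F1 mouse fetuses, and were compared between offspring of TBT-exposed and DMSO-exposed F0 dams. The members are the 12 libraries whose labels read F1 and P4, of 81 in the whole series, with all 970384 LTR loci of the deposited table. They fall into 5 DMSO libraries (43-4, 43-5, 44-1, 44-3 and 48-4) and 7 TBT libraries (45-3, 45-4, 45-5, 47-1, 47-3, 47-4 and 47-5). All fetuses were of the OG2 line, in which the promoter and distal enhancer of Pou5f1 drive EGFP in germline cells on a C57BL/6J background. The F0 dams drank water with 50 nM TBT or with the DMSO vehicle alone. P4 and P5 cells were both EGFP-positive and were separated by side scatter, and P6 cells were EGFP-negative. The first number of a label (43, 44 and 48 in DMSO, 45 and 47 in TBT) never occurred in both groups, so that a difference between these numbers and a difference between treatments cannot be told apart. The labels do not say whether libraries came from separate litters or whether cells of several fetuses were pooled, and p-values measure the spread between these libraries, which may be partly technical.

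Endogenous retroviruses are remnants of germline infections, and most of their copies in the mouse genome are now solitary LTRs or broken internal regions (names ending in -int). In fetal male germ cells DNA methylation is erased and then laid down again, and in that period the PIWI proteins, their piRNAs and silencers such as MORC1 and DNMT3L hold these repeats down. Tributyltin, TBT, is an organotin that binds the nuclear receptors RXR and PPARG. RNA was primed with oligo-dT, so an LTR locus received reads when it was transcribed as its own unit and also when it lay inside the transcript of a host gene.

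The sequences of 3 LTR loci are shown, taken from those that passed edgeR's likelihood ratio test with DMSO and TBT libraries that did not overlap (values below). RLTR20C2_MM had the highest TBT level of these, and RLTR10D2 and RMER10B are LTRs that lie outside genes, where no host transcript is annotated. All are the plus strand of GRCm38.p6, read 5′ to 3′, and the first 300 bases are given where the locus is longer. Capitals mark AATAAA, the polyadenylation signal, and AGGTCA, the core element of nuclear receptor sites, on either strand, and the 2 motifs do not overlap in these windows.
RLTR20C2_MM, chr11:70905884-70906013, within an intron of Rabep1: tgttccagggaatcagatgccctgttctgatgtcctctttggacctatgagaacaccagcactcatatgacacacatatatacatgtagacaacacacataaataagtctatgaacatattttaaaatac
RLTR10D2, chr9:51668959-51669258, outside genes: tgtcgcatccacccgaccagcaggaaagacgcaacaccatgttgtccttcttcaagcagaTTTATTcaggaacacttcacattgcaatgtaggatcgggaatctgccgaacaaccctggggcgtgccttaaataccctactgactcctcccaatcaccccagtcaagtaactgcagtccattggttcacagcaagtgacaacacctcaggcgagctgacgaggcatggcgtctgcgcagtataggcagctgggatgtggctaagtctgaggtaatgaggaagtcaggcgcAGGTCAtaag
RMER10B, chr16:48266674-48266973, outside genes: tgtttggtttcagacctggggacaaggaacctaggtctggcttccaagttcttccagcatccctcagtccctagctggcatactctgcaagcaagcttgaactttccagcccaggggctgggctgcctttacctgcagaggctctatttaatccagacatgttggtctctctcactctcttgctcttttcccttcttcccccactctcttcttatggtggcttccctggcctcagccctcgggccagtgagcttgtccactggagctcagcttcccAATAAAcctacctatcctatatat
RLTR10D2 held 1 match to each motif, RMER10B held 1 match to AATAAA and 0 to AGGTCA, and RLTR20C2_MM held 0 of both. Of the 1953 tested loci outside genes with at least 300 bases, 685 (35.1%) held AATAAA and 374 held AGGTCA in their first 300 bases. Over the first 130 bases of 2525 such loci the shares were 21.8% and 7.96%. A match describes the letters only.

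Most reads of P4 cells lay inside genes. Loci within introns received 90.8% of the reads, loci overlapping exons 7.10%, and loci outside genes, which make up 64.5% of all loci, 2.15%. The libraries held 3890178 to 4775425 reads in DMSO and 4279444 to 6304053 in TBT, and 307458 loci had a read in at least 1 library. Of 19 listed germ cell genes, 11 held LTR loci, and 9 of these reached the minimum mean of 1.21 CPM set for testing. Nanos3 and Tex101 did not, with means of 0 and 0.0462 CPM in DMSO and 0.0744 and 0.379 in TBT. Of the 9, Lin28a had the lowest means, 8.74 CPM in DMSO and 8.17 in TBT. Pou5f1, whose regulatory sequence drives the EGFP of the sort, had a mean of 81.7 CPM in DMSO and 91.4 in TBT. Summed over all loci within a gene, Ddx4, an RNA helicase of germ cells, had 1721 to 2095 CPM in DMSO and 1823 to 2190 in TBT libraries, and Dazl, an RNA-binding protein of germ cells, 509 to 561 and 335 to 638. Dppa4 and Sall4 hold no LTR locus and could not be checked. CPM here are read counts scaled by the authors for library size and TMM, and 1 read was worth about 0.242 CPM in the median library.

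Neighbouring loci of 1 intron often carried the same reads. Of 55399 neighbouring pairs of tested loci in the same intron, 78.5% had identical counts in all 12 libraries, and this share did not decline with distance (78.2% under 1 kb and 80.2% at 20 kb or more). Of the 18592 neighbouring pairs of the same gene that did not share an intron, 7.42% were identical, and of the 1283 pairs outside genes 2.65%. Of the remaining 16326 pairs, which belong to none of these kinds (for example an intron locus beside one in another gene), 9.67% were identical (40.3% under 1 kb). The 91621 tested loci had 42333 distinct read profiles, and 66.9% of them shared all 12 counts with another tested locus. A count of loci inside genes is therefore not a count of separate measurements. If 1 sequenced read was counted at several loci, the totals per library, the share of reads in introns and the gene sums hold it more than once. The sources used here do not say how a read that spans an intron was assigned to the loci inside it.

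**Figure D1:**
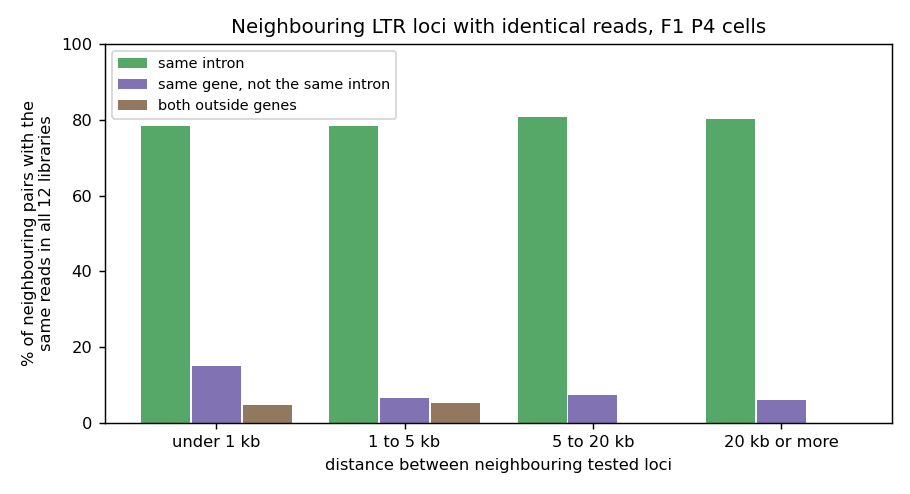
Share of neighbouring pairs of tested LTR loci with identical counts in all 12 F1 P4 libraries (y axis, percent) by the distance between the loci (x axis), for pairs in the same intron, pairs of the same gene not in the same intron, and pairs outside genes (the remaining pairs are not drawn). The bars of same-intron pairs stay near 78.2% to 80.7% at every distance, and the other bars do not exceed 15.1%.

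No LTR locus passed the main test in P4 cells. limma on log2(value + 1 unit), 1 unit being 0.242 CPM, tested the 91621 loci whose mean reached 5 units, and 0% had an FDR under 0.05 (lowest FDR 0.582). At an unadjusted p under 0.05 were 6496 loci, of which 4002 were higher in TBT (4.37%) and 2494 lower (2.72%). This balance turned with the scaling: with every library brought to the same total, 2381 were higher and 3624 lower, and the median log2 fold change of all loci moved from 0.04 to -0.03. Without DMSO 44-3, 2495 were higher and 1758 lower. The quasi-likelihood test of edgeR passed 0 loci with 5695 at an unadjusted p under 0.05, and DESeq2 passed 15, all lower. These 15 lay in introns along 1 stretch of chromosome 5 (77369311 to 77391154), 11 of them within Igfbp7 alone, and had 2 distinct read profiles. All 7 TBT libraries lay above all 5 DMSO libraries at 216 loci (0.236%) and below them at 138 (0.151%).

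The likelihood ratio test of edgeR on the recovered reads passed 90 loci, 7 higher (0.00764% of those tested) and 83 lower (0.0906%) in TBT. These 90 loci had 50 distinct read profiles, 6 higher and 44 lower. Of the 90, 67 lay in introns, 15 overlapped exons and 8 lay outside genes, and 32 genes held the 74 loci that lie within 1 gene. At 65 of the 83 lower loci the highest of the DMSO libraries was 44-3. Without DMSO 44-3 the test passed 9 loci, among them 5 of the 83 lower and 1 of the 7 higher ones, and without DMSO 48-4 it passed 328. Without DMSO 44-1 the count was 16, without DMSO 43-4 it was 28, without TBT 45-4 it was 46, without TBT 45-5 it was 46, and without DMSO 43-5 it was 162. Taken as 1 locus per set with the same reads, 30 passed, and among loci outside genes alone 1 passed.

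Of the 7 higher loci, 5 had groups that did not overlap. A MYSERV16_I-int locus of 397 bases, an internal region of an ERVK element, lies in an intron of Vwa3b (chromosome 1, 37040322 to 37040718). It had 0 CPM in 4 of the DMSO libraries, 0.915 CPM in DMSO 48-4, and in TBT 1.02 CPM at the lowest, 2.23 at the median and 4.75 at the highest. The groups were 0.183 ± 0.409 (SD, n = 5) and 2.64 ± 1.43 (SD, n = 7), with a log2 fold change of 2.96 (SE 0.578), a likelihood ratio FDR of 0.00189 and a limma FDR of 0.582. All TBT libraries were above all DMSO libraries, but from 4 to 19 reads only.

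The RLTR20C2_MM locus in Rabep1, a gene of endosome fusion, had the highest level of the 5. Its DMSO libraries had 4.39, 5.34, 5.31, 2.71 and 3.66 CPM, and its TBT libraries 7.37 at the lowest, 8.59 at the median and 10.4 at the highest. The log2 fold change was 1.04 (SE 0.214), the likelihood ratio FDR 0.0229 and the DESeq2 adjusted p 0.0814. The RLTR10D2 locus between genes on chromosome 9, 11498 bases from Gm8959, had 0 CPM in DMSO 43-5, 44-1 and 44-3, 0.774 in 43-4 and 0.915 in 48-4, against 1.54, 1.90 and 3.64 CPM (lowest, median, highest) in TBT. Its log2 fold change was 2.38 (SE 0.554) with a likelihood ratio FDR of 0.0274, on 6 to 14 reads in TBT. RMER4A (chromosome 7, 46035376 to 46035834) and RLTR42-int (46036183 to 46036407) lie in an intron of Nomo1 and had identical reads, and thus count as 1 measurement, of 0.719 ± 0.436 CPM in DMSO and 2.90 ± 1.04 in TBT (log2 fold change 1.79, likelihood ratio FDR 0.0418).

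Of the 83 lower loci, 10 had groups that did not overlap, and the 5 of lowest likelihood ratio p are given here. The lowest belonged to an RNERVK23-int locus outside genes, 2425 bases from Vars on chromosome 17 (34998194 to 34998562). Its DMSO libraries had 7.74, 2.13, 7.85, 8.87 and 1.6 CPM, and in TBT 4 libraries had 0 CPM and the highest had 1.19. The log2 fold change was -3.27 (SE 0.623), the likelihood ratio FDR 1.76e-05 and the quasi-likelihood FDR 0.0821. The DMSO libraries themselves spread from 7 to 36 reads. An RLTR30D_RN locus just before it (34997140 to 34997395) was also lower, from 4.73 ± 3.78 to 0.418 ± 0.590 CPM (likelihood ratio FDR 0.00144), with overlapping groups.

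An ERVB2_1A-I_MM-int element of 7037 bases on chromosome 6 (129848530 to 129855566) overlaps exons of Klra17 and Gm44248. It had 1.81, 8.01, 8.55, 1.72 and 4.80 CPM in DMSO and 0, 0.512 and 1.04 (lowest, median, highest) in TBT, with a log2 fold change of -2.54 and a likelihood ratio FDR of 2.97e-05. An IAPEY4_I-int element of 7655 bases on chromosome 14 (43925486 to 43933140), of the IAP family, covers almost all of the gene Gm8113. It had 2.66 ± 1.77 CPM in DMSO and 0.170 ± 0.241 in TBT, where 4 libraries had 0 CPM and the others at most 2 reads (log2 fold change -2.78, likelihood ratio FDR 0.000124). Its mean over the 12 libraries was just at the minimum of 1.21 CPM, and without DMSO 44-1, 44-3 or 48-4 it was below it and not tested. The handling of reads with more than 1 matching repeat copy is not given in the sources used here, so the place of reads in such long internal regions is uncertain. An MT2B locus overlapping an exon of Pcyox1 had 3.35, 1.87, 7.62, 8.13 and 1.6 CPM in DMSO and 0.475 to 1.25 in TBT (likelihood ratio FDR 0.00228). The RMER10B locus shown above, 3900 bases from Gm49770, had 7.74, 1.33, 2.31, 3.45 and 1.6 CPM in DMSO and 0, 0.427 and 1.19 in TBT (log2 fold change -2.23, SE 0.590, likelihood ratio FDR 0.0129). Of the named loci with groups apart, only RLTR20C2_MM had both group means above the minimum of 1.21 CPM. The others reached it through the group where they were high, so that a difference between the groups is partly a condition of their having been tested.

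**Figure D2:**
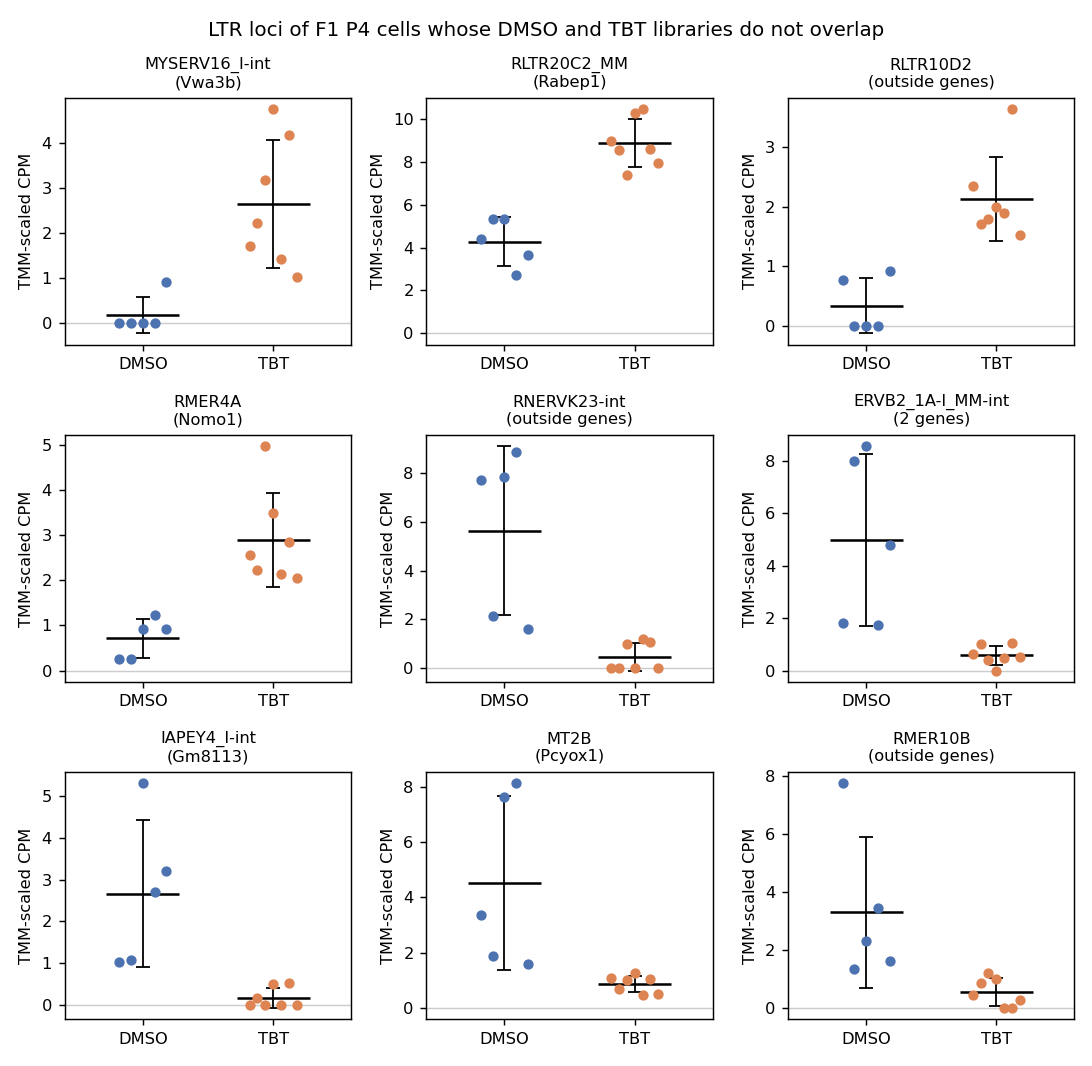
TMM-scaled CPM (y axis) of 9 LTR loci in the 5 DMSO and 7 TBT libraries of F1 P4 cells (x axis), with the host gene under each name. Each point is a library and the bars are the mean and SD; in every panel the groups lie apart, and RLTR20C2_MM has the highest TBT level (7.37 to 10.4 CPM) while most other values are a few reads.

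The loci of highest level did not differ between the groups past the threshold. An MTEb locus in an intron of Sub1, a transcription coactivator (chromosome 15, 11985744 to 11985965), had the highest mean, with 703 to 933 CPM in DMSO and 691 to 1185 in TBT (log2 fold change 0.16, unadjusted limma p 0.176). 4 of the 6 highest loci lay in Sub1, and the others lay in an intron shared by H3f3a and Gm17275 (RLTR31D_MM) and across an exon of Psmd2 (ERVB4_1B-LTR_MM, limma p 0.0267 and FDR 0.681 for a log2 fold change of 0.25). Chosen after their values were seen, the highest loci outside genes were 2 MER34B-int fragments on chromosome 3 (92690817 to 92690938 and 92690993 to 92691174), 659 and 835 bases from Gm4202, and MT2_Mm on chromosome 2 (157528080 to 157528349), the LTR of MERVL. The first MER34B-int fragment had 271 to 291 CPM in DMSO and 217 to 306 in TBT, and MT2_Mm had 99.3 to 113 and 96.3 to 125.

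Several of the lower loci shared a host gene and its reads. Igfbp7, a secreted binding protein of insulin-like growth factors, held 12 of the 83 lower loci in 3 read profiles. Akr1cl held 10 in 5 profiles, Me1, malic enzyme, 10 in 1, Gpc3, a cell surface proteoglycan, 8 in 1, Dcn, a matrix proteoglycan of connective tissue, 3 in 3, Lrrfip1 3 in 1, and Cyp11a1, which makes pregnenolone in Leydig cells, 2 in 1. Among the genes with 1 lower locus each were Inha, the inhibin alpha subunit made by Sertoli cells, and Cst9, a cystatin on the Sertoli cell list, named after their values were seen. The Cyp11a1 gene sum was 67.6, 5.87, 76.2, 175 and 13.7 CPM in DMSO and 2.99, 8.70 and 22.8 (lowest, median, highest) in TBT. Its log2 fold change was -2.12 (SE 0.728, limma p 0.0111, limma FDR 0.704, DESeq2 adjusted p 0.0280, likelihood ratio FDR 0.0518). DMSO 43-4, 44-1 and 44-3 were above every TBT library and DMSO 43-5 and 48-4 lay within the TBT range. Akr1cl had the same order of the DMSO libraries, with 57.5, 6.40, 111, 211 and 12.4 CPM in DMSO and 2.39 to 28.7 in TBT. Dcn had 16.5, 4.54, 37.9, 57.2 and 0.686 CPM in DMSO and 0.260 to 7.50 in TBT. The Me1 sum was 870 CPM in DMSO 44-3, 196 to 442 in the other DMSO libraries and 112 to 360 in TBT.

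The Leydig cell sum was highest in the same 3 DMSO libraries. Most of it there was Cyp11a1 itself (67.6 CPM in DMSO 43-4, 76.2 in 44-1 and 175 in 44-3), so the sum largely repeats that gene. Reads in the 4 measured of 7 listed Leydig cell genes (Cyp11a1, Cyp17a1, Lhcgr and Nr5a1) summed to 9.61 to 229 CPM in DMSO (median 94.9) and 7.68 to 41.3 in TBT (median 13.3), with 94.9 in DMSO 43-4, 119 in 44-1 and 229 in 44-3. Star, Insl3 and Hsd3b1, and the Sertoli cell markers Sox9 and Amh, hold no LTR locus. The sum of other interstitial cells was highest in DMSO 44-1 (110) and 44-3 (106), with 45.4 to 64.0 in all other libraries. Most of the Sertoli cell sum was Dmrt1, with means of 801 CPM in DMSO and 696 in TBT. Over the 3 lists of somatic cells as drawn up, with Dmrt1, the sum was 657 to 1560 CPM in DMSO and 441 to 1852 in TBT. Over the 3 lists without Dmrt1, which germ cells use as well, the sum was 92.9 to 431 CPM in DMSO and 76.8 to 144 in TBT. Of 17 such genes tested, 0 were higher and 3 lower at an unadjusted p under 0.05 (Aard, Cyp11a1 and Dcn), where 3.58% and 3.47% of all 11409 gene sums were higher and lower, and the median log2 fold change was -0.79 against 0.01 for all genes. Of these lists, Leydig cells had a median of -1.25, Sertoli cells with Dmrt1 -0.70 and other interstitial cells 0.12, with 1 gene lower in each, and without DMSO 44-3 the medians were -0.72, -0.49 and -0.17. Without DMSO 44-3, 1 of the 17 was lower (Cyp11a1, log2 fold change -1.57) and the median was -0.62. In a bulk library, fewer cells of a type and less RNA per cell cannot be told apart, and the part of somatic RNA in the lower loci was not tested.

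**Figure D3:**
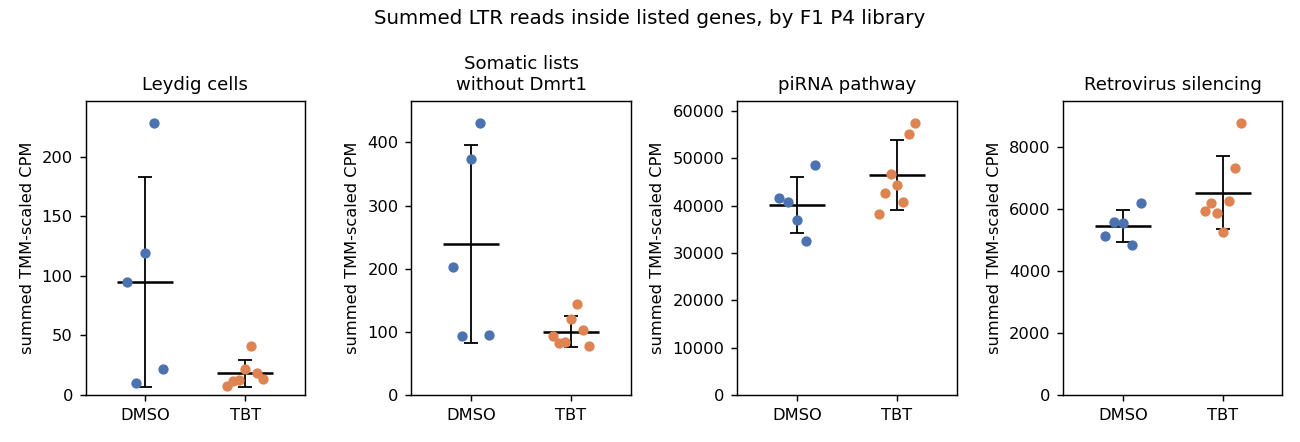
Summed TMM-scaled CPM of all LTR loci inside the genes of 4 lists (y axis) by treatment (x axis), each point an F1 P4 library and the bars the mean and SD. The Leydig cell sum spreads from 9.61 to 229 in DMSO and from 7.68 to 41.3 in TBT, and the groups overlap in all 4 panels. Most of the piRNA pathway sum is Fkbp6.

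Summed over a gene, 0% of 11409 gene sums passed limma at an FDR of 0.05, with 409 higher (3.58%) and 396 lower (3.47%) at an unadjusted p under 0.05. With the same total per library 252 were higher and 532 lower, and the median log2 fold change of all gene sums was -0.06 in place of 0.01. The likelihood ratio test passed 7, all lower, and DESeq2 passed 20, 10 in each direction. The lowest p was that of Kcnk1, a potassium channel (chromosome 8, 125995170 to 126030685), with 76.1, 60.8, 92.2, 70.2 and 48.7 CPM in DMSO and 16.1, 26.5 and 43.3 in TBT. All TBT libraries were below all DMSO libraries (log2 fold change -1.34, SE 0.245, limma p 7.51e-05, limma FDR 0.577, likelihood ratio FDR 0.00413, DESeq2 adjusted p 0.00114). Without DMSO 44-3 the log2 fold change was -1.33. Ssc5d, a scavenger receptor, had 7.48, 3.74, 3.47, 7.14 and 5.26 CPM in DMSO and 0, 0.5 and 1.79 in TBT, also with the groups apart (log2 fold change -2.89, likelihood ratio FDR 0.00413). Its TBT mean of 0.655 CPM was under the minimum of 1.21 CPM, so that a difference is partly a condition of its having been tested. With loci of the same reads taken once its log2 fold change was -2.12. Mtap, the phosphorylase of the methionine salvage pathway, had 51.5 to 71.2 CPM in DMSO and 21.2 to 52.0 in TBT (log2 fold change -1.01, DESeq2 adjusted p 0.0497). Igfbp7 had 195, 134, 224, 242 and 99.7 CPM in DMSO and 73.4, 86.5 and 110 in TBT (log2 fold change -0.91, likelihood ratio FDR 0.0100). Lrrfip1 had 35 to 104 CPM and 18.8 to 39.0 (log2 fold change -1.08, likelihood ratio FDR 0.0330). Gm8113 holds only the IAPEY4_I-int locus given above.

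Of the gene sums that were higher, Pnpla7, a lysophospholipase (chromosome 2, 24976033 to 25054057), had the lowest p. Its 37 loci summed to 443, 376, 445, 409 and 488 CPM in DMSO and 504, 591 and 626 in TBT, with all TBT libraries above all DMSO libraries (log2 fold change 0.43, SE 0.0891, DESeq2 adjusted p 0.00114, limma FDR 0.577). Ppp2r3a, a regulatory subunit of protein phosphatase 2A, had 4.90 to 15.7 CPM in DMSO and 17.9 to 33.5 in TBT (log2 fold change 1.32, DESeq2 adjusted p 0.0485). Tmem163, a zinc transporter, had 48.8 to 94.9 and 88.3 to 194 (log2 fold change 0.98, DESeq2 adjusted p 0.0380). B4galt1, a galactosyltransferase, had 1.16 to 5.72 and 5.14 to 16.9 (log2 fold change 1.96, DESeq2 adjusted p 0.0571). The antisense gene 1700034H15Rik had 3.10 to 6.40 and 7.37 to 13.8, in reads that carry no strand. Bach1, a heme-regulated repressor, had 0 CPM in 4 DMSO libraries, 1.16 in DMSO 44-1 and 0.640 to 6.25 in TBT. Its DMSO mean of 0.231 CPM was under the minimum of 1.21 CPM, so it was tested only through its TBT group. With loci of the same reads taken once it did not reach the minimum and was not tested.

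The genes that silence retroviruses in germ cells had no sum past the threshold. All 21 measured genes of the piRNA pathway list had a log2 fold change above 0, between 0.05 and 0.43 with a median of 0.21, where 51.8% of all gene sums were above 0 (median 0.01). With the same total per library 20 of them were above 0 and the median was 0.14. Most of the list's summed level was 1 gene, Fkbp6 (52 loci, means of 27271 CPM in DMSO and 31568 in TBT, limma p 0.156). The list's summed level was 32571 to 48550 CPM in DMSO and 38138 to 57534 in TBT. Its lowest library was DMSO 44-3, which had the highest Leydig cell sum (229 CPM), and the somatic genes without Dmrt1 had a median log2 fold change of -0.79; their part in the shift of the piRNA list was not tested. At an unadjusted p under 0.05 were 3, Tdrd1, Tdrd9 and Henmt1, all higher, against 3.58% of all gene sums, and without DMSO 44-3 only Henmt1. Tdrd9, an RNA helicase of the piRNA pathway, had 1793, 2782, 2438, 1667 and 2749 CPM in DMSO and 2154, 3072 and 4480 in TBT (log2 fold change 0.43, SE 0.171, limma p 0.0238, FDR 0.704). Tdrd1, the scaffold of the piRNA granule, had 206 to 360 CPM and 278 to 471, and Henmt1, which methylates piRNA ends, 45.4 to 55.9 and 50.2 to 64.8. The PIWI genes had an unadjusted limma p above 0.1, Piwil2 with 1344 to 2111 CPM in DMSO and 1427 to 2650 in TBT (p 0.179), and Piwil4, the nuclear PIWI protein, 214 to 438 and 231 to 623 (p 0.120). Tdrd5 had 389 to 451 and 381 to 580, and Mael 3591 to 4390 and 3588 to 4736.

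Of the 26 measured genes on the retrovirus silencing list, 3 were higher (Morc1, Chaf1a and Kdm1a) and 1 lower (Atrx) at an unadjusted p under 0.05, against 3.58% and 3.47% of all gene sums, and 0 passed the limma FDR of 0.05. Without DMSO 44-3, 1 was higher (Chaf1a, limma p 0.0189) and 0 lower. Morc1, a chromatin ATPase needed to silence transposons in these cells, had 2713, 3206, 3326, 2596 and 3848 CPM in DMSO and 2847, 3823 and 5948 in TBT (log2 fold change 0.34, SE 0.156, limma p 0.0490). Kdm1a, a histone demethylase, had 517 to 663 and 601 to 878 CPM. Atrx, which loads histone H3.3 on repeats, had 16.8 to 47.3 and 7.03 to 27.7 (log2 fold change -0.85). Dnmt3l, the cofactor of de novo DNA methylation, had 60.9 to 101 and 67.8 to 134 CPM. DMSO 44-3 had the lowest value of the DMSO libraries for Morc1, Kdm1a, Dnmt3l, Tdrd9 and Piwil4 and the highest for Atrx.

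Among the nuclear receptors and cofactors, at an unadjusted limma p under 0.05, 1 of 17 tested was higher, Ncoa3, a coactivator, and 1 lower, Med1, a mediator subunit, where 3.58% and 3.47% of all gene sums were higher and lower. Ncoa3 had 9.29, 15.5, 13.4, 6.90 and 12.8 CPM in DMSO and 18.1, 21.5 and 27 in TBT, with the groups apart (log2 fold change 0.96, SE 0.226, limma p 0.000809, limma FDR 0.577, DESeq2 adjusted p 0.0380). Med1 had 9.55 to 17.5 CPM and 3.56 to 15.1 (log2 fold change -0.77, limma p 0.0482, and 0.0925 without DMSO 44-3). Rxra, the receptor that TBT binds, had 15.8 to 56.0 CPM in DMSO and 25.8 to 76.5 in TBT, Rxrb 2.54 to 6.63 and 2.56 to 7.03, and Pparg was below the minimum level. Of the 9 measured genes of the endoplasmic reticulum stress list, Atf6 was higher (log2 fold change 0.58, limma p 0.0497) and Pdia4 lower (-0.76, limma p 0.0432) at the same threshold, and Hspa5 holds no LTR locus. Without DMSO 44-3 Atf6 had 0.33 (limma p 0.171) and Pdia4 -0.60 (limma p 0.119), and with loci of the same reads taken once Atf6 had 0.21. Of 9 germ cell genes 1 was higher, Kit, a receptor of the stem cell factor (14.8 to 44.1 CPM in DMSO, 37.0 to 48.4 in TBT, log2 fold change 0.50, limma p 0.0477), and 0 lower, and without DMSO 44-3 Kit had 0.25 (limma p 0.153). In the meiosis list 0 of 7 were at an unadjusted limma p under 0.05, and in the list of blood cells and macrophages 0 of the 1 gene tested.

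**Figure D4:**
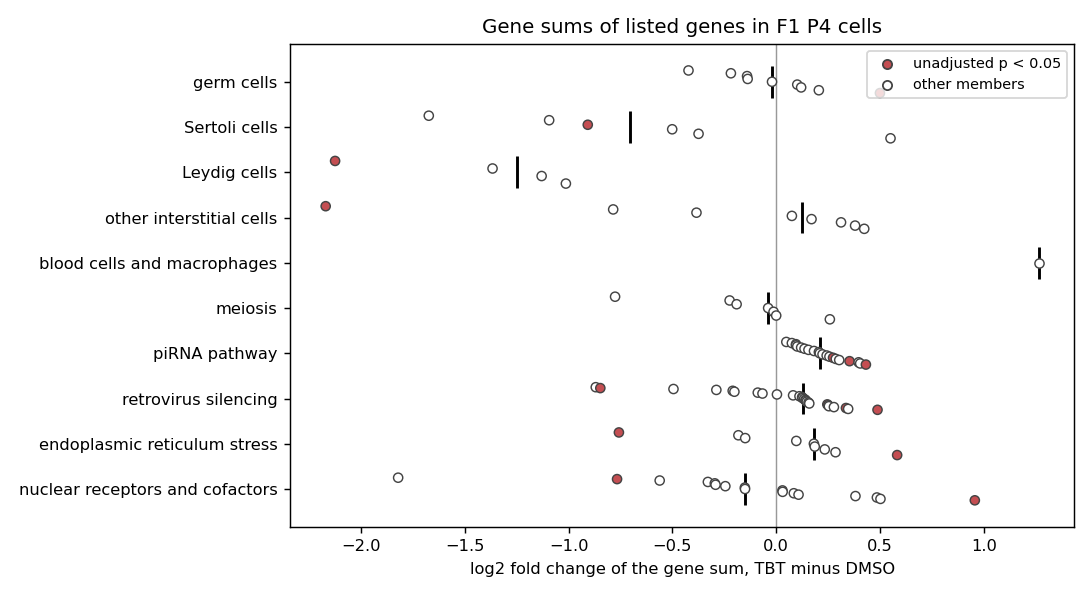
Log2 fold change of the gene sum, TBT minus DMSO (x axis), for every tested gene of 10 lists (y axis), with filled points at an unadjusted limma p under 0.05 and a bar at each list's median. All 21 piRNA pathway genes lie above 0, at up to 0.43, and all 4 Leydig cell genes lie at -1.01 or lower.

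Species totals, the sum over all loci of 1 repeat name, also held 0% past the limma FDR of 0.05, of 664 tested. At an unadjusted p under 0.05, 46 were higher (6.93%) and 5 lower (0.753%), and with the same total per library 8 were higher and 34 lower, with the median log2 fold change of all species at 0.06 and -0.02 in the 2 scalings. The count of 46 also rested on single libraries: it was 16 without DMSO 44-3, 20 without DMSO 44-1, 30 without DMSO 43-4 and 148 without DMSO 48-4, and among TBT libraries 140 without 45-3, 86 without 47-3, 30 without 45-5, 26 without 47-4 and 20 without 47-5. The lowest p was that of MLT1F1-int, an old internal region of the ERVL-MaLR class, with 56.5, 57.9, 46.4, 57.9 and 43.5 CPM in DMSO and 29.7, 38.4 and 39.2 in TBT. All TBT libraries were below all DMSO libraries (log2 fold change -0.52, SE 0.109, limma FDR 0.116, likelihood ratio FDR 0.000250, DESeq2 adjusted p 0.000821). Of this species' reads, 4 loci in 1 intron of Ctnnal1 with identical counts carried 11.6% each, and 1 locus in Syce3 carried 25.9%. With loci of a gene and species that share all counts taken once, the log2 fold change was -0.36, the limma FDR 0.459 and the likelihood ratio FDR 0.715, and the likelihood ratio test passed 0 species.

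Among higher totals, IAPLTR1_Mm, an LTR of IAP elements, had 775, 808, 807, 796 and 771 CPM in DMSO and 827, 853 and 895 in TBT, with the groups apart by a narrow margin (log2 fold change 0.11, limma p 0.00626, FDR 0.439). With the same total per library the log2 fold change was 0.04, and at its loci outside genes alone -0.03. ERVB3_1-LTR_MM had 130 to 147 CPM and 153 to 176 (log2 fold change 0.21, limma FDR 0.439), also with the groups apart. RLTR20B1, RLTR19C and LTR86B1 had log2 fold changes of 0.25, 0.27 and 0.33 with overlapping groups. On the lower side, IAP1-MM_I-int, an internal region of IAP elements, had 562 to 699 CPM and 499 to 635 (log2 fold change -0.14, limma p 0.0452), and HERVL74-int, RMER17A-int and LTR40b had -0.53, -0.19 and -0.11. With loci of a gene and species that share all counts taken once, HERVL74-int had -0.28 (limma p 0.328). Without DMSO 44-3, IAP1-MM_I-int had -0.09 (limma p 0.156) and RMER17A-int -0.12 (limma p 0.139). The 8 species of highest level (MTD, MT2B, MTC, ORR1D1, RLTR17B_Mm, ORR1F, ORR1B1 and RMER15) had log2 fold changes of 0.06 to 0.10 and limma p of 0.0499 to 0.0960. With the same total per library the log2 fold changes were 0.14 for ERVB3_1-LTR_MM, -0.21 for IAP1-MM_I-int and -0.18 for LTR40b, and of the 8 species of highest level 4 (MTD, MTC, RLTR17B_Mm and ORR1F) were below 0.

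At loci outside genes alone, 0 of 546 species totals passed limma, with 4 higher and 25 lower at an unadjusted p under 0.05 and a median log2 fold change of -0.07. MTD led there too, with 939 ± 61.1 CPM in DMSO and 916 ± 126 in TBT. IAP-d-int, named after its value was seen as 1 of 3 higher species of lowest p, had 168 ± 20.4 and 211 ± 39.4 CPM (log2 fold change 0.31, limma p 0.0247, FDR 0.840). RNERVK23-int had the lowest p, with 5.94 ± 3.67 CPM in DMSO and 1.04 ± 0.836 in TBT (log2 fold change -2.31, limma FDR 0.840), and the locus near Vars gave 5.64 CPM of its DMSO mean.

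No share of reads by place or by repeat group had an adjusted p under 0.05 in two-sided exact permutation tests over the 12 libraries, in which the smallest p possible is 0.00253. Loci outside genes took 2.13% to 2.51% of the reads in DMSO and 1.83% to 2.38% in TBT (exact permutation p 0.144, adjusted p 0.216 over 3 shares). Loci overlapping exons took 7.09% to 7.34% and 6.98% to 7.17% (exact permutation p 0.0581, adjusted p 0.174), and internal regions 10.9% to 11.2% and 10.9% to 11.5% (exact permutation p 0.414). Of 24 repeat groups, 0 had an adjusted permutation p under 0.05, and the lowest unadjusted exact permutation p was 0.169 for RLTR13, with 0.485% ± 0.00403 in DMSO and 0.478% ± 0.00896 in TBT (SD, n = 5 and 7). IAP elements took 0.952% ± 0.0287 and 0.969% ± 0.0305 of the reads, and the ORR1 group 21.0% ± 0.0818 and 21.0% ± 0.138.

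The TBT effect differed between P4 and P5 cells at 1 of 101401 loci tested (0.000986%), with 4384 at an unadjusted p under 0.05. It was an element of MURVY-int, a retrovirus family named for its copies on the Y chromosome, here outside genes on chromosome 11 (54035346 to 54040035), 7256 bases from Slc22a4. In P4 cells it had 1.03, 3.20, 1.62, 3.45 and 2.29 CPM in DMSO (2.32 ± 1.03, SD, n = 5), and in TBT 0 CPM in 5 of 7 libraries and 0.475 and 0.685 in the other two (0.166 ± 0.289). In P5 cells it had 4.30, 2.33, 1.03 and 2.02 CPM in DMSO (2.42 ± 1.37, SD, n = 4) and 5.4 to 12.7 in TBT (8.49 ± 2.38, SD, n = 7). TBT libraries were thus below every DMSO library in P4 cells and above every DMSO library in P5 cells. The TBT effect in P4 minus that in P5 cells was -4.67 on the log2 scale (SE 0.603, limma FDR 0.000413, quasi-likelihood FDR 0.000926). With the number shared by P4 and P5 libraries as a replicate block, 8 loci passed, 1 higher and 7 lower, and MURVY-int had a limma FDR of 0.00263. In P5 cells alone its log2 fold change was 1.84 (limma FDR 0.0403). The P4 reads were few, 4 to 14 in DMSO and 0 to 4 in TBT, so that the locus was under the minimum for the test of P4 cells alone, while the P5 reads were 6 to 18 and 29 to 70.

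**Figure D5:**
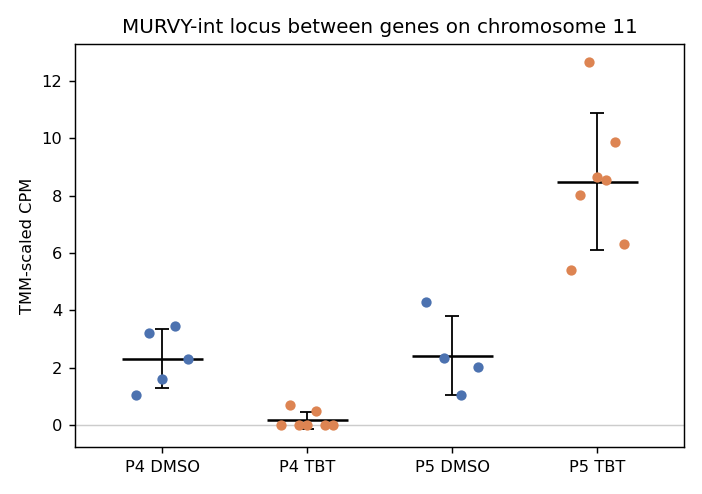
TMM-scaled CPM (y axis) of the MURVY-int locus outside genes in P4 and P5 cells of DMSO and TBT offspring (x axis), each point a library and the bars the mean and SD. TBT libraries lie at 0 to 0.685 CPM in P4 cells and at 5.4 to 12.7 CPM in P5 cells, and the DMSO libraries of both at 1.03 to 4.30 CPM.

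For the other named loci with groups apart the values of the 4 DMSO and 7 TBT libraries of P5 cells are set beside those of P4 cells. MYSERV16_I-int in Vwa3b had 0.744 ± 0.962 CPM in DMSO and 5.95 ± 3.57 in TBT (log2 fold change 3.24, limma p 5.08e-05, FDR 0.132), and RLTR20C2_MM had 3.86 ± 1.2 and 6.64 ± 1.67 (0.77, limma p 0.00648, FDR 0.492). RNERVK23-int had 7.43 ± 3.01 CPM in DMSO and 6.28 ± 2.30 in TBT, IAPEY4_I-int 11.9 ± 4.86 and 10.2 ± 3.84, and MT2B in Pcyox1 6.27 ± 1.49 and 6.08 ± 1.65, with log2 fold changes of -0.22, -0.25 and -0.06. RLTR10D2 had 1.70 ± 1.66 and 2.04 ± 1.61 CPM (log2 fold change 0.59), RMER4A in Nomo1 4.78 ± 1.89 and 4.33 ± 1.31 (-0.11), and ERVB2_1A-I_MM-int 7.05 ± 7.95 and 4.93 ± 3.14 (-0.06). RMER10B, lower in TBT in P4 cells, had 0.0420 ± 0.0841 CPM in DMSO and 0.505 ± 0.495 in TBT of P5 cells and was not tested there. The difference of the effects at the 8 tested loci of these had limma FDRs of 0.621 to 1.00.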

How the data were processed

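RNA of sorted F1 P4 cells was sequenced after oligo-dT priming. The authors trimmed reads with Trim Galore, aligned them with STAR to GRCm38/mm10, counted them at RepeatMasker LTR loci with a modified ERVmap and scaled them with edgeR (TMM), so the deposited signal values are TMM-scaled CPM. Versions are not given in the sources used here. Each column was divided by its smallest value above 0 to recover whole reads, and 100% of the values came out whole (tolerance 0.001). Genes were taken from GENCODE vM21.

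The main test was limma 3.58.1 in R 4.3.3 on log2(value + 1 unit) with Benjamini-Hochberg adjustment, at features with a mean of at least 5 units (1.21 CPM). This scale understates the change of low features. Count tests (edgeR 4.0.16, DESeq2 1.42.0) on recovered reads, other pseudocounts, minimum levels, scalings and libraries left out were alternatives, and procedures were tested on simulated data. The members, gene lists and tests were chosen with earlier results of these data known. Named loci were, as 0 passed limma, the 5 in each direction of lowest likelihood ratio p that passed that test with groups apart, and the 6 of highest mean. Named species were the 5 of lowest p in each direction and the 8 of highest mean. Named genes were the 6 of lowest p in each direction, list members at an unadjusted p under 0.05, and a fixed set of germ cell, piRNA, silencing and receptor genes. Other tables of the series, and the columns of F1 P5 cells beyond the comparison given, were not used here.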

Additional observations from a re-analysis of the deposited data

Results flagged for a closer look

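In several groups 1 library stood apart from the others of its treatment (14 of 230 groups of libraries checked, where chance alone gives about 5%). MYSERV16_I-int in Vwa3b had 0.915 CPM in DMSO 48-4 and 0 in the other DMSO libraries, and RLTR10D2 had 3.64 CPM in TBT 47-4 against 1.54 to 2.35 in the other TBT libraries. Of the species totals, ERVB3_1-LTR_MM had 130 CPM in DMSO 44-1 (142 to 147 in the others), RLTR20B1 671 in DMSO 48-4 (559 to 590), and LTR40b 385 in TBT 47-5 (427 to 442). Of the gene sums, Pnpla7 had 504 CPM in TBT 47-1 (574 to 626 in the others), Dcn 7.50 in TBT 47-1 (0.260 to 3.08), Bach1 1.16 in DMSO 44-1 (0 in the others), Henmt1 55.9 in DMSO 44-3 (45.4 to 47.8), and Tdrd5 451 in DMSO 48-4 (389 to 405). The MuLV, MuRRS and MURVY group took 0.334% of the reads in DMSO 48-4 and 0.314% to 0.317% in the other DMSO libraries.

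TBT 45-3 had a summed level of 1786 CPM in the Sertoli cell list (376 to 676 in the other TBT libraries) and of 1852 in the 3 somatic lists together (441 to 747). Without Dmrt1 its somatic sum was 93.5, within the 76.8 to 144 of all TBT libraries. TBT 47-3 had the highest Leydig cell sum of the TBT libraries, 41.3 CPM against 7.68 to 22.

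The TBT effect on MURVY-int at chromosome 11 differed between P4 and P5 cells by -4.67 on the log2 scale, by the test of the difference itself.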

How the results depend on the processing

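The limma counts of 0 loci, 0 species and 0 gene sums were the same under each pseudocount, minimum level, scaling and library left out, and with a random effect for the first number of the label. Count tests on recovered reads passed more: the likelihood ratio test 90 loci, 1 species and 7 gene sums, DESeq2 15 loci (2 read profiles), 1 species and 20 gene sums, and the quasi-likelihood test 0 of each. The 90 loci became 30 with 1 locus per set with the same reads, 1 at loci outside genes (both chosen after seeing the data), and 9 to 328 with 1 library left out. The difference of the P4 and P5 effects passed 1 locus, and 8 with the replicate block, 60 by the likelihood ratio test, 7 with a pseudocount of 4 units, 0 with a mean of at least 20 units, which MURVY-int did not reach, and 1 to 4 with 1 P4 library left out. Samples with the same number correlated at -0.00553 to 0.278, not all above 0.1, and not every sample correlated best with its own number. No P4 library shares its number between treatments, so the P4 tests have no block. The share of internal regions differed by 0.111 percentage points and by -0.00172 without the 100 highest loci. Directions also turned, with the same total per library, for MTD (-0.000299), MTC (-0.00886), RLTR17B_Mm (-0.0130), ORR1F (-0.00925) and the MT2_Mm locus (-0.0102), all log2. At loci outside genes they turned for IAPLTR1_Mm (-0.0254), RLTR19C (-0.203), LTR40b (0.353), MTD (-0.0443), MT2B (-0.160), MTC (-0.0374), ORR1D1 (-0.0778), RLTR17B_Mm (-0.0152), ORR1F (-0.0245) and ORR1B1 (-0.0428). With 1 library left out, MER34B-int at chromosome 3 start 92690817 ranged from -0.0644 to 0.0185, MER34B-int at chromosome 3 start 92690993 from -0.0687 to 0.0304, and gene sum Rxrb from -0.0936 to 0.233. The causes were not tested. Loci of a few reads per library limit the precision.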

Other observations

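The 8 loci outside genes that passed the likelihood ratio test included, beside those described, 4 named after their values were seen: RLTR21 on the X chromosome, RMER6C on chromosome 1 and MMERVK10D3_I-int on chromosome 6, all lower in TBT, and MTB_Mm-int on chromosome 9, higher with a log2 fold change of 1.95. At all 4 the groups overlapped. RMER6C had 0, 5.34, 0, 8.87 and 0 CPM in DMSO and at most 0.427 in TBT (limma p 0.125). RLTR21 had 9.29, 1.33, 1.62, 0 and 1.83 CPM in DMSO and at most 0.796 in TBT. MMERVK10D3_I-int had 0.693 to 11.1 CPM in DMSO and 0 to 3.09 in TBT. Without DMSO 44-3, where MTB_Mm-int had 0 CPM, its log2 fold change was 1.30. Among repeat groups, MYSERV took 0.858% ± 0.0224 of the reads in DMSO and 0.886% ± 0.0427 in TBT (two-sided exact permutation p 0.222, adjusted p 0.808), and ETn with MusD 0.206% ± 0.00900 and 0.211% ± 0.00988 (p 0.404 in the same exact permutation test).

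RMER4A in Nomo1 can be set beside its values in P5 cells. Its DMSO libraries had 0.719 ± 0.436 CPM in P4 and 4.78 ± 1.89 in P5 cells, and its TBT libraries 2.90 ± 1.04 and 4.33 ± 1.31. The Nomo1 gene sum had 51.5 to 103 CPM in DMSO and 87.8 to 150 in TBT of P4 cells (log2 fold change 0.41, limma p 0.0390, FDR 0.704), and without DMSO 44-3 the log2 fold change was 0.24 (limma p 0.132).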
